A study of Homo sapiens with 4 samples.

Results

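Read-through genes are annotated transcription units that run through a gene and on into its neighbour, and they carry the names of both. They were taken from the count table by name: a gene was kept when its symbol had the form A-B, both A and B were symbols of other genes in the table, and its counts over the 4 libraries summed to at least 40. TNFSF12-TNFSF13 and antisense, intronic and divergent transcripts were left out by the same rule. This gave 130 read-through genes of the 46427 genes in the table, out of 157 that carried such a name, of which 26 lay under the minimum and 14 of those were at 0 in every library. The description column called 129 of the 130 a readthrough, the exception being TRIM59-IFT80. The same column marked 36 as candidates for nonsense-mediated decay (NMD). By the biotype column, the others were 72 protein-coding genes, 14 other non-coding genes and 8 transcribed pseudogenes.

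SNU638, a long-standing human line of gastric cancer cells, carried either a control vector or YTHDF1 overexpression. YTHDF1 is a cytoplasmic reader of N6-methyladenosine in mRNA. The study's methods describe plasmid transfection in general, and the promoter that drives YTHDF1 is not given in the sources used here. Each vector gave 2 libraries, numbered 1 and 2. Both groups were held without serum for 24 h and then given 10 ng/ml of interferon-γ (IFN-γ), so no group was without the cytokine. The labels put this treatment at 8 h, and the study's own text gives a different time, so the duration is uncertain. The series asks how added YTHDF1 alters the response to IFN-γ, and the single comparison is YTHDF1 against control.

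RNA polymerase II normally stops after the poly(A) signal of a gene has been cut, when the cleavage and polyadenylation complex and the exonuclease XRN2 release it from the template. Where termination fails, transcription continues into the next gene on the same strand, and splicing can join exons of the upstream gene to exons of the downstream gene. Such joined RNAs may encode a fusion of both proteins or carry an early stop codon and be cleared by NMD, and they share most of their exons with the genes on either side.

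The libraries held 57398137 to 60864942 counts each, so counts can be set side by side across libraries. YTHDF1 itself stood at 4889 and 4555 counts with the control vector, and at 971190 and 158662 with its own vector, so the overexpression was present in both YTHDF1 libraries and differed widely between them. The epithelial markers EPCAM, KRT8, KRT18 and KRT19 were abundant, while the gastric markers CLDN18 and TFF1 were at 0 in all 4 libraries. Of the markers of other cells, PTPRC (leukocytes) had 0 to 11 counts, CD14 (monocytes) 15 to 41 and COL1A2 (fibroblasts) 0 throughout, whereas COL1A1, also a fibroblast collagen, had 639 and 323 counts in control and 639 and 351 in YTHDF1. The read-through genes together took 0.0897 to 0.108% of the counts of a library.

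In the RefSeq table of GRCh38.p14, all 130 were found, and for 128 both neighbours lay on the same chromosome. The exceptions were BORCS7-ASMT, whose name ends in the symbol of an unrelated gene on chromosome X while the next gene on its own chromosome is AS3MT (0 to 3 counts), and SLCO1B3-SLCO1B7, whose downstream gene was not matched. The gap between the neighbours had a median of 6691 bases and was under 10000 bases in 80 of 128, and in 9 the neighbours overlapped. Of 91 with a promoter entry for both, 67 started within 100 bases of the upstream gene, and of 82 with an entry for the downstream gene, 1 started within 100 bases of it. So most of these genes were annotated as starting at the upstream gene's own promoter.

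In GENCODE release 29 (GRCh38), 96 could be matched together with both neighbours. A median of 118.5 exonic bases, or 3.87% of the exonic length of a read-through gene, lay outside the exons of both neighbours, and 44 of the 96 had under 100 such bases. NME1-NME2, DNAAF4-CCPG1, BLOC1S5-TXNDC5 and ZFP91-CNTF had 0. In a gene with 0, the only sequence of its own is the exon junction joining the upstream gene to the downstream gene. Other genes listed below had more. SMURF2P1-LRRC37BP1 had 3825 bases outside both neighbours (63.4%), PRR5-ARHGAP8 703 (21.5%), SENP3-EIF4A1 422 (12.0%), FAM47E-STBD1 159 (4.90%) and PPAN-P2RY11 66 (2.48%). Junctions are shown for the genes on which the results turn, each 30 bases long, 5′ to 3′, with the end of the last exon shared with the upstream gene in lower case and the start of the first exon shared with the downstream gene in capitals. The coordinates are the exon edges on each side of the spliced-out intron.
PRR5-ARHGAP8 (chr22:44735162-44786457, plus strand): attcctgcatcctggAGCTGCAGAGAGACA
DNAAF4-CCPG1 (chr15:55389433-55432497, minus strand): aattgtatgtagaagACCTGAAAGATGTCT
FAM47E-STBD1 (chr4:76278224-76309144, plus strand): gagctgcaggaacagAGCATCTTCAAGAAA
ZFP91-CNTF (chr11:58617568-58622766, plus strand): agtgggacggaacggAGCATTCACCGCTGA
BLOC1S5-TXNDC5 (chr6:7904723-8026367, minus strand): caggaacgaaaaaagGTGTGGACACTGCCA
NME1-NME2 (chr17:51161272-51166827, plus strand): catacaagttggcagGACCATGGCCAACCT
SENP3-EIF4A1 (chr17:7571479-7572284, plus strand): ctgcaaactcactgtCCAGGGGAATCCTCC
SMURF2P1-LRRC37BP1 (chr17:30615980-30631755, plus strand): tgatttaccagacaaCTGAAGAAGCATCTG
PPAN-P2RY11 (chr19:10111022-10113633, plus strand): gggaaatggatcgagGTGCCAAGTCCTGCC

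Transcripts from GENCODE supplied these sequences, and the annotation used for the counts may place the junctions elsewhere. How reads on shared exons were divided between overlapping genes is not given in the sources used here. The values that follow are therefore the counts assigned to each gene, and reads across the junctions were not counted separately.

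Levels among the 130 ran from 40 to 25224 counts over the 4 libraries, with a median of 691, and 12 had 4000 or more. NME1-NME2 was the highest. It joins a pair of nucleoside diphosphate kinase genes and had 7162 and 5265 counts in control and 6583 and 6214 in YTHDF1. SENP3-EIF4A1, which joins a SUMO protease gene to that of the translation initiation helicase eIF4A1, had 5031 and 2471 in control and 4640 and 2483 in YTHDF1. The next were PKD1P3-NPIPA1 (2511 to 2771 per library), ANKHD1-EIF4EBP3 (1929 to 3888), HNRNPUL2-BSCL2 (1835 to 3049) and SMURF2P1-LRRC37BP1 (2008 to 2475). PPAN-P2RY11, RPL17-C18orf32, BOLA2-SMG1P6 and DUS4L-BCAP29 completed the 10 highest. In NME1-NME2 the 2 groups overlapped, and in SENP3-EIF4A1 the libraries numbered 1 were about alike and both lay above those numbered 2.

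The share of the locus was the count of the read-through gene over the sum of its own count and those of both neighbours. Its median over the 130 genes was 5.72% in control 1, 6.51% in control 2, 6.22% in YTHDF1 1 and 5.00% in YTHDF1 2. With shares averaged within each group first, the medians were 6.21% in control and 6.09% in YTHDF1, a difference of -0.12 points, while the same difference taken within each replicate number had an SD of 1.42 points (n = 2). The share was higher in YTHDF1 in 56 genes and lower in 74, and neither count was tested. The groups did not differ beyond the spread between libraries, and with 2 libraries against 2 an exact permutation test cannot go below p = 0.333.

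**Figure D1:**
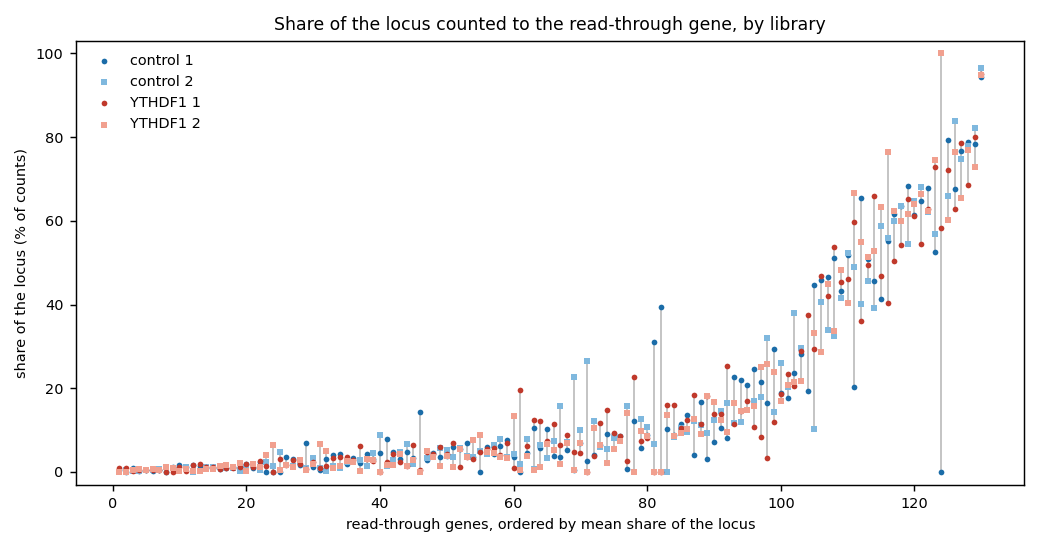
The share of the locus (%, y axis) is plotted for the 130 read-through genes ordered by mean share, 1 point per library (blue control, red YTHDF1, circles number 1, squares number 2), and the grey line joins the lowest and the highest library. Mean shares run from 0.360% to 95.2%, and 43 genes have a range of over 10 points between libraries.

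Most read-through genes were a small part of their locus. The mean share over libraries was under 5% in 55 and under 1% in 15, and it was over 50% in 17. The protein-coding genes had a median mean share of 5.31% and the NMD candidates 5.70%, and the other non-coding genes had 16.4%. The 8 transcribed pseudogenes had 71.6%, with LINC00680-GUSBP4 (1.36%) far under the other 7. Across the 96 genes matched in GENCODE, the mean share had a Spearman correlation of -0.41 with the percentage of upstream exonic bases that the read-through gene does not cover. The correlation was -0.29 for downstream exonic bases. With the percentage of the read-through gene's own exonic bases outside both neighbours, it was 0.25. These are descriptions, since all points rest on the same 4 libraries and how shared exons were counted is not known.

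SMURF2P1-LRRC37BP1 held the highest share and a steady one. It was 94.4% in control 1 (95% Clopper-Pearson interval 93.4 to 95.4), 96.4% in control 2, 95.2% in YTHDF1 1 and 94.8% in YTHDF1 2. SMURF2P1 itself had 80 to 116 counts and LRRC37BP1 had 7 to 24. PKD1P3-NPIPA1 (72.8 to 82.2%), PPIP5K1P1-CATSPER2 (68.5 to 78.8%), BMS1P4-AGAP5 (65.5 to 78.5%), PRH1-PRR4 (62.7 to 83.8%) and BMS1P2-AGAP9 (60.2 to 79.3%) followed. All but PRH1-PRR4 of these are pseudogene read-throughs with near-identical copies elsewhere in the genome, so their counts are uncertain. The share of PRH1-PRR4 leaves out PRH1-TAS2R14 (67 to 115 counts per library), a read-through gene with the same upstream gene. The rest of the 10 highest were LIMS3-LOC440895, SUGT1P4-STRA6LP-CCDC180, TEN1-CDK3 and SLX1B-SULT1A4. The junction of SLX1B-SULT1A4 has the same sequence as that of SLX1A-SULT1A3, so its counts are uncertain as well.

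In some loci the neighbour that gives its name was not counted at all. The downstream gene was at 0 in every library for 9 read-through genes and the upstream gene for 3. P2RY11, a purinergic receptor, was at 0 throughout, while PPAN-P2RY11 had 2500 and 2299 counts in control and 1819 and 2319 in YTHDF1, and PPAN, a ribosome biogenesis factor, had 1408 to 1796. The share of PPAN-P2RY11 was 61.6, 59.9, 50.3 and 62.2% in that order, so the groups overlapped.

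Few of these genes were called for YTHDF1 against control by the test, which left the replicate number out of the model. Of 129 tested, none was higher and 4 were lower when a gene was called at an absolute log2 fold change from 0.5 upward with unadjusted p under 0.05, using the quasi-likelihood test of edgeR over all 17781 genes tested. The background was 0.0225% of all genes higher and 0.0787% lower, that is 4 and 14 genes, and 4 of the 14 genes called lower were read-through genes. Of these 4, 3 were at 0 in both YTHDF1 libraries and passed the filter on low counts through control alone, so the count of 4 is a description. With at least 10 counts in every library those 3 were not tested, and PHOSPHO2-KLHL23 and TPTEP2-CSNK1E were called lower and RTEL1-TNFRSF6B higher. IQCJ-SCHIP1 was the gene not tested. No gene of the table had an edgeR adjusted p under 0.05 (0% of 17781). This held for the overexpressed YTHDF1 as well (log2 fold change 6.88, edgeR unadjusted p = 0.0061), so the adjusted p can miss large differences here. DESeq2's Wald test gave 3 genes with an adjusted p under 0.05, of which 2 were read-through genes, PRR5-ARHGAP8 and DNAAF4-CCPG1. An edgeR fit with the replicate number as a block gave 8, of which 5 were read-through genes, including all 4 called here. Both of the DESeq2 genes, and FAM47E-STBD1 with them in the block fit, were at 0 in both YTHDF1 libraries. They passed the filter through control alone, so these counts are descriptions as well. The median log2 fold change was -0.04 over the read-through genes and 0.00 over all genes tested, and 47 of the 129 reached 0.5 in size against 7.49% of all genes. Both YTHDF1 libraries lay above both control libraries in 15 of the 129 read-through genes, with a background of 5.67% of all genes tested, and below them in 19, with a background of 5.83%. The difference between replicate numbers was shared by both groups less in read-through genes than in all genes (Pearson correlation 0.33 and 0.87). These backgrounds are therefore not a measure of chance, and neither count was tested.

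PRR5-ARHGAP8 joins PRR5, a subunit of the mTORC2 kinase complex, to ARHGAP8. It had 111 and 163 counts in control and 0 and 0 in YTHDF1, at least 93.8-fold lower when 3 counts are allowed over the group at 0, or 74.2-fold and 114-fold from a single control library (edgeR unadjusted p = 0.00176, adjusted p = 1.00). PRR5 had 717 and 515 counts in control and 693 and 536 in YTHDF1, and ARHGAP8 had 1566 and 1181 against 1766 and 1379. The fold bounds here and for the genes that follow cover counting error only, not the spread between libraries. The groups overlapped in both neighbours of PRR5-ARHGAP8 but not in the read-through gene. Its share was 4.64% (3.83 to 5.56) and 8.77% (7.52 to 10.1) in control, and 0 of 2459 and 0 of 1915 counts in YTHDF1, which allow up to 0.122 and 0.157%.

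DNAAF4-CCPG1, an NMD candidate, joins a dynein assembly factor to CCPG1, a receptor for autophagy of the endoplasmic reticulum. It had 631 and 162 counts in control and 0 and 0 in YTHDF1, at least 271-fold lower, or 114-fold without control replicate 1 and 422-fold without control replicate 2 (edgeR unadjusted p = 0.00684, adjusted p = 1.00). The control libraries differed from each other, with shares of 31.1% (29.1 to 33.2) and 6.60% (5.65 to 7.66). CCPG1 had 1109 and 1616 counts in control against 1540 and 1810 in YTHDF1, and DNAAF4 had 288 and 676 against 455 and 703. The lowest count of each neighbour was in control 1, the library where the read-through gene was highest.

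FAM47E-STBD1, whose downstream gene encodes a glycogen-binding protein, had 25 and 222 counts in control and 0 and 0 in YTHDF1, at least 84.5-fold lower, or 156-fold without control replicate 1 and 16.7-fold without control replicate 2 (edgeR unadjusted p = 0.0278, adjusted p = 1.00). STBD1 had 895 and 602 in control and 986 and 752 in YTHDF1. PHOSPHO2-KLHL23, which joins a phosphatase gene to a Kelch family gene, had 141 and 183 counts in control and 44 and 39 in YTHDF1. Its CPM fell from 2.80 ± 0.60 to 0.697 ± 0.072 (SD, n = 2), a log2 fold change of -2.00 with a standard error of 0.36 (edgeR unadjusted p = 0.00657, adjusted p = 1.00). It was the only called gene with counts in every library, and its 2 neighbours were at 189 to 278 and 2271 to 2722 counts with overlapping groups.

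Over the alternatives, the adjusted p ranged from 6.9e-05 to 1.00 for PRR5-ARHGAP8, from 3.6e-06 to 1.00 for DNAAF4-CCPG1, from 0.0022 to 1.00 for FAM47E-STBD1 and from 0.043 to 1.00 for PHOSPHO2-KLHL23 across edgeR and DESeq2 fits. The lowest came from DESeq2's Wald test in the first 2 and from the edgeR fit with a replicate block in the other 2. RTEL1-TNFRSF6B and TPTEP2-CSNK1E, named after their values were seen, were called under DESeq2's Wald test as well, the first higher and the second lower. RTEL1-TNFRSF6B had 95 and 247 counts in control and 511 and 536 in YTHDF1, and TPTEP2-CSNK1E had 378 and 59 against 36 and 25. Neither passed the reported edgeR test (log2 fold changes 1.56 and -2.85, unadjusted 0.061 and 0.059). PHOSPHO2-KLHL23 was no longer called when the second YTHDF1 library was left out (log2 fold change -1.91, unadjusted 0.058 by edgeR) or when the second control library was (log2 fold change -1.77, unadjusted 0.0503 by edgeR).

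**Figure D2:**
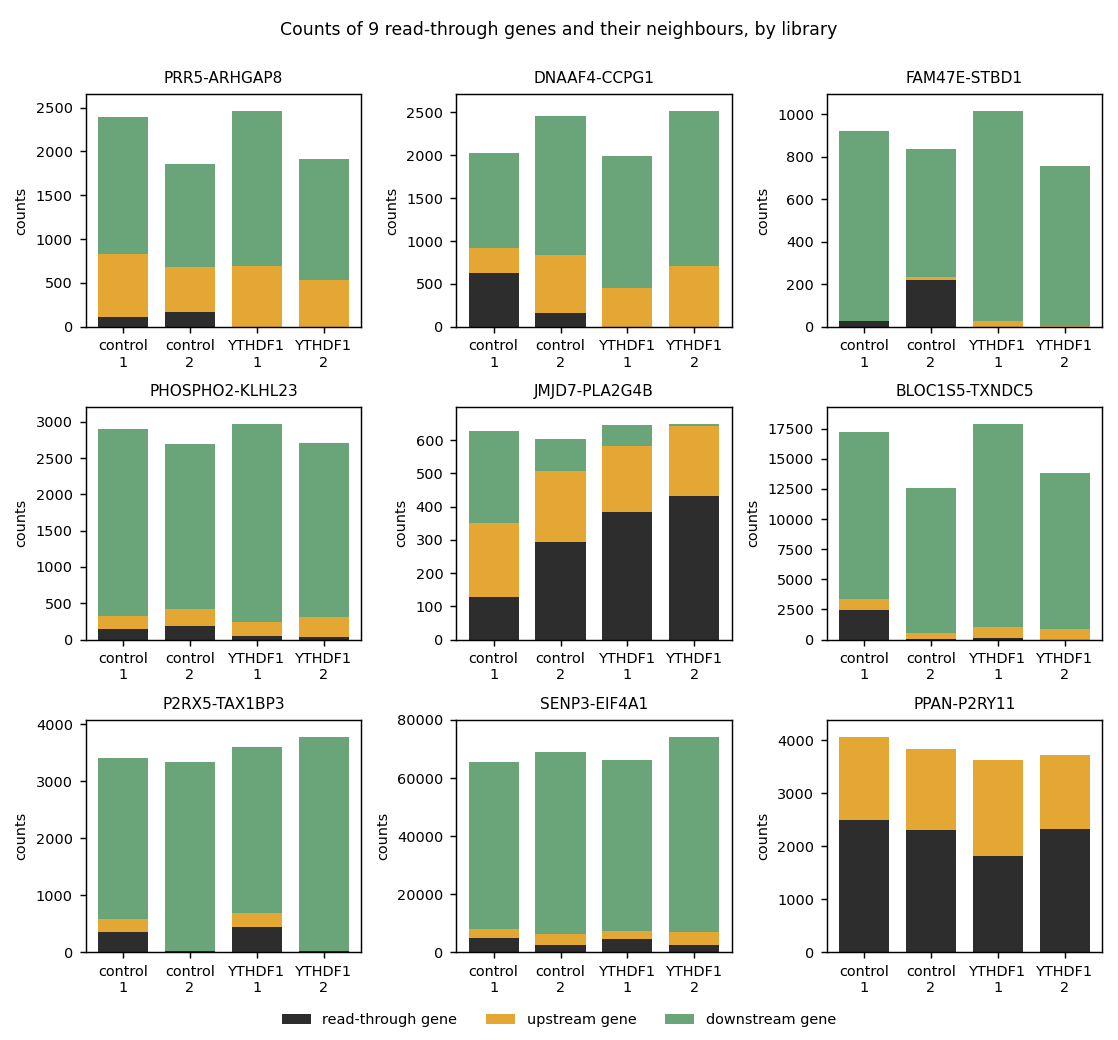
Counts (y axis, from 0) of the read-through gene (black), the upstream gene (orange) and the downstream gene (green) are stacked for each of 4 libraries at 9 loci. In PRR5-ARHGAP8, DNAAF4-CCPG1 and FAM47E-STBD1 the black part is at 0 in both YTHDF1 libraries while the whole bar keeps about its height, and in P2RX5-TAX1BP3 it is low in both libraries numbered 2.

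No summed locus was called. When each read-through gene and its neighbours were added up (127 loci, since 6 read-through genes share a neighbour with another), 0 of 127 passed the same thresholds against a background of 0.0798% of the 17549 rows tested, and 0 were under an unadjusted p of 0.05 at any fold by edgeR or by DESeq2's Wald test. The median log2 fold change of the loci was 0.01. The PRR5-ARHGAP8 locus stood at 0.01 (standard error 0.20), that of DNAAF4-CCPG1 at -0.03 (0.19), that of FAM47E-STBD1 at -0.02 (0.23) and that of PHOSPHO2-KLHL23 at -0.02 (0.10). In these 4 loci the read-through gene was called and the total was not. The mean share of the read-through gene in control was 6.70% for PRR5-ARHGAP8, 18.9% for DNAAF4-CCPG1, 14.7% for FAM47E-STBD1 and 5.82% for PHOSPHO2-KLHL23. With shares this low, complete loss of the read-through gene alone would leave the total short of the fold threshold. The uncalled totals therefore cannot tell whether the neighbours changed in turn.

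The share moved most in LIMS3-LOC440895, which took 0 of 135 counts in control 1, all 102 in control 2, 74 of 127 in YTHDF1 1 and all 119 in YTHDF1 2, with LIMS3 taking the rest and the downstream gene at 0. JMJD7-PLA2G4B, which joins a hydroxylase gene to a cytosolic phospholipase gene, had shares of 20.4% (17.3 to 23.7) and 48.8% (44.8 to 52.9) in control and 59.6% (55.7 to 63.4) and 66.7% (62.9 to 70.3) in YTHDF1. The groups did not overlap, but the control libraries were further apart than the higher of them was from YTHDF1 1. Its log2 fold change was 0.89 with a standard error of 0.52 (edgeR unadjusted p = 0.169, adjusted p = 1.00). IQCJ-SCHIP1 took 39.5% (35.5 to 43.5) in control 1 and 0 in the other libraries, with limits of 0.396 to 0.629% there.

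The other genes with the widest ranges were MSH5-SAPCD1 (40.5 to 76.4%), FAM24B-CUZD1 (10.2 to 44.7%), TIMM23B-AGAP6 (36.1 to 65.4%), CRYZL2P-SEC16B (3.27 to 32.0%) and PKD1P4-NPIPA8 (39.1 to 65.9%). The share intervals had a median width of 1.74 points, and these intervals and limits cover counting error only. The highest share stood in control 1 for 38 genes, in control 2 for 34, in YTHDF1 1 for 32 and in YTHDF1 2 for 26.

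The read-through genes were further apart between libraries than their neighbours were. Between YTHDF1 1 and control 1 the median size of the log2 CPM difference was 0.50 over the 130 read-through genes, 0.12 over 229 neighbours with at least 40 counts and 0.07 over the summed loci. Between YTHDF1 2 and control 2 these medians were 0.43, 0.09 and 0.05. At least 2-fold apart were 42 read-through genes in the first pair and 36 in the second, 17 and 13 of the neighbours, and 0 and 0 of the summed loci, with a background of 4.02 and 5.24% of all genes tested. No test was made of these differences between sets.

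**Figure D3:**
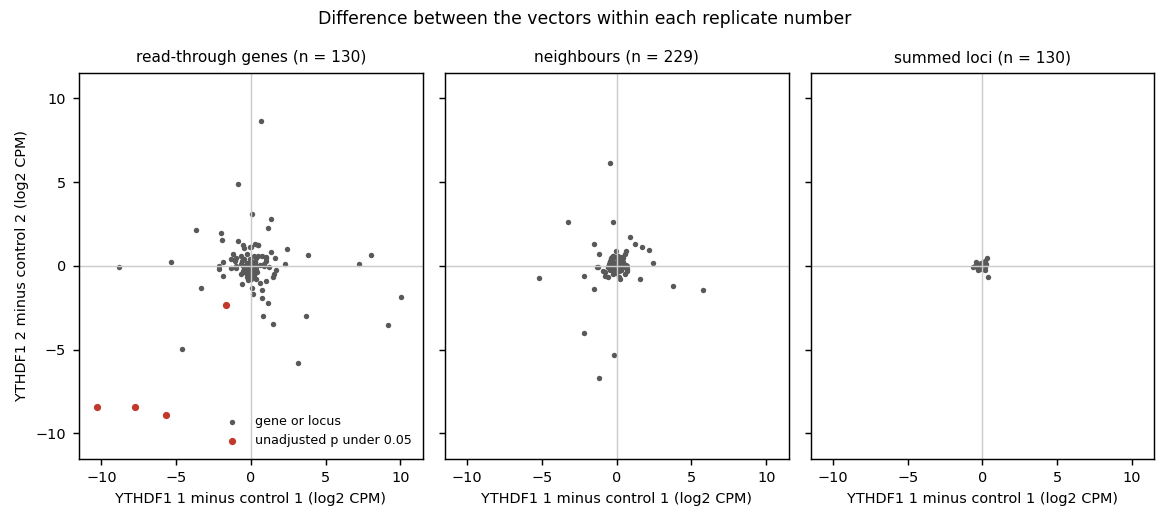
Each point gives the log2 CPM difference of YTHDF1 minus control in the libraries numbered 1 (x axis) and in those numbered 2 (y axis), for read-through genes, neighbours and summed loci on the same axes. Read-through genes spread from -10.3 to 10.1 along the x axis, summed loci from -0.65 to 0.36, and the 4 genes called by the test (red) lie at the lower left.

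Abundance differs between these sets, so the same counts were made within classes of summed count. Of the 70 read-through genes with 400 to 3999 counts, 21 were at least 2-fold apart in the first pair and 14 in the second, against 0.865 and 3.41% of 4395 genes of that class and 4.82 and 6.02% of 83 neighbours. Of the 48 with 40 to 399 counts, 43.8 and 45.8% were, against 12.7 and 14.7% of 4374 genes and 13 and 8 of 32 neighbours, so in this class the neighbours of the first pair came close to the read-through genes. Of the 12 with 4000 or more, 0 were in either pair.

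**Figure D4:**
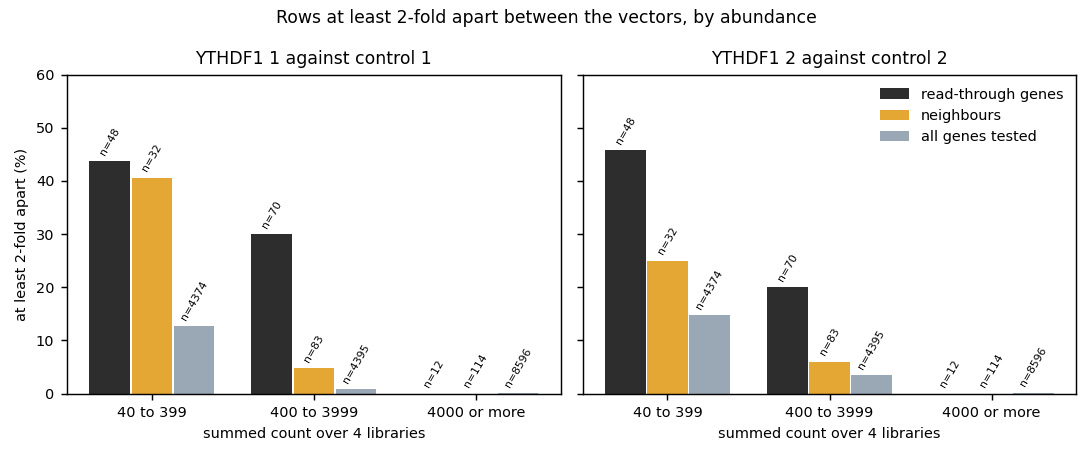
Bars give the percentage of rows at least 2-fold apart between the YTHDF1 and the control library of the same number, by class of summed count, for read-through genes (black), their neighbours (orange) and all genes tested (grey), with the number of rows above each bar. The read-through genes are highest in the 2 lower classes of both panels, narrowly so over the neighbours in the lowest class of the first panel, and at 0 in the top class.

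Between the vectors, read-through genes with a large difference moved mostly against their neighbours. In the first pair, 21 read-through genes were at least 2-fold apart with at least 100 counts gained or lost after scaling, and in 18 of them the neighbours' summed count moved the other way. In the second pair this held in 12 of 13. The median size of the log2 difference was 1.84 and 3.01 in these genes and 0.06 and 0.05 in their summed loci. These genes were chosen for a large difference, so the counts are a description. BLOC1S5-TXNDC5, whose downstream gene encodes a disulfide isomerase, had 2479 counts in control 1, 14 in control 2, 99 in YTHDF1 1 and 0 in YTHDF1 2. TXNDC5 had 13858, 11955, 16866 and 12973 counts in the same order, so it was higher in YTHDF1 1 than in control 1 but lower in both libraries numbered 2, where the read-through gene was also low.

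UBE2F-SCLY and ZNF765-ZNF761, chosen after their values were seen, showed a like pattern in other libraries. UBE2F-SCLY had 23 counts in control 1, 1207 in control 2, 207 in YTHDF1 1 and 23 in YTHDF1 2, and SCLY was lowest (934) in control 2. ZNF765-ZNF761 had 0, 58, 526 and 17 counts in that order, and ZNF761 was lowest (1100) in YTHDF1 1. In each locus the library with the most read-through counts had the fewest counts of the downstream gene.

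Across replicate numbers, 43 of the 129 read-through genes (33.3%) differed, 18 higher and 25 lower in number 2, at a log2 difference of at least 0.5 in size and an edgeR adjusted p under 0.05 with group as a covariate. The background was 25.7% of all genes, with 9.71% higher and 16% lower, so libraries of different number stood apart over the whole table. What differed between the numbers is not given in the labels. Under DESeq2's Wald test 28 read-through genes were called, and the share of all genes called by that test is not given here. Of the 43, 23 had no called neighbour and 9 had called neighbours that all moved the other way. A further 10 had called neighbours that all moved the same way, and 1 had called neighbours that moved both ways.

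ZFP91-CNTF, an NMD candidate that joins a ubiquitin ligase gene to that of ciliary neurotrophic factor, had 0 and 123 counts in control 1 and 2 and 0 and 137 in YTHDF1 1 and 2. CNTF had 117 and 0 in control and 106 and 0 in YTHDF1. So each library counted either the one or the other, and the sides changed with the replicate number in both groups. This read-through gene has 0 exonic bases of its own in GENCODE.

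P2RX5-TAX1BP3, which begins at an ATP-gated channel gene, had 358 and 20 counts in control 1 and 2 and 445 and 20 in YTHDF1 1 and 2, lower in number 2 by 4.30 on the log2 scale (standard error 0.22, edgeR adjusted p = 2.2e-07). Its upstream gene P2RX5 went with it, at 229 and 9 in control and 247 and 9 in YTHDF1. SENP3-EIF4A1 fell by 0.95 on the log2 scale (standard error 0.05, edgeR adjusted p = 2.8e-07), while SENP3 had 3014 and 3809 counts in control and 2898 and 4405 in YTHDF1. ARHGAP11A-SCG5 (148, 13, 200 and 33 counts in control 1, control 2, YTHDF1 1 and YTHDF1 2) and RPL36A-HNRNPH2 (742, 341, 641 and 285) were also lower in number 2 in both groups, as was BLOC1S5-TXNDC5.

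Higher in number 2 were FMC1-LUC7L2 (311 and 658 counts in control, 275 and 572 in YTHDF1), BCL2L2-PABPN1 (453 and 721, 336 and 677) and MICOS10-NBL1 (6 and 88, 0 and 418). FMC1-LUC7L2 rose by 1.09 on the log2 scale (standard error 0.12, edgeR adjusted p = 3.8e-05), and LUC7L2, a splicing factor, had 6510 and 4284 counts in control and 6343 and 4256 in YTHDF1. FAM47E-STBD1 was also called here, from the control libraries alone, since both YTHDF1 libraries were at 0. A further 4 genes had at most 3 counts in both libraries numbered 2 and at least 10 in both numbered 1, namely STON1-GTF2A1L, MROH7-TTC4, KLRC4-KLRK1 and CNPY3-GNMT. KLRC4-KLRK1 had 32, 0, 39 and 0 counts and KLRK1, a receptor of natural killer cells, had 102, 0, 42 and 0, beside 0, 0, 4 and 11 counts of PTPRC. The part of other cells in this was not tested, and in bulk libraries fewer cells of a type cannot be told apart from less RNA per cell.

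**Figure D5:**
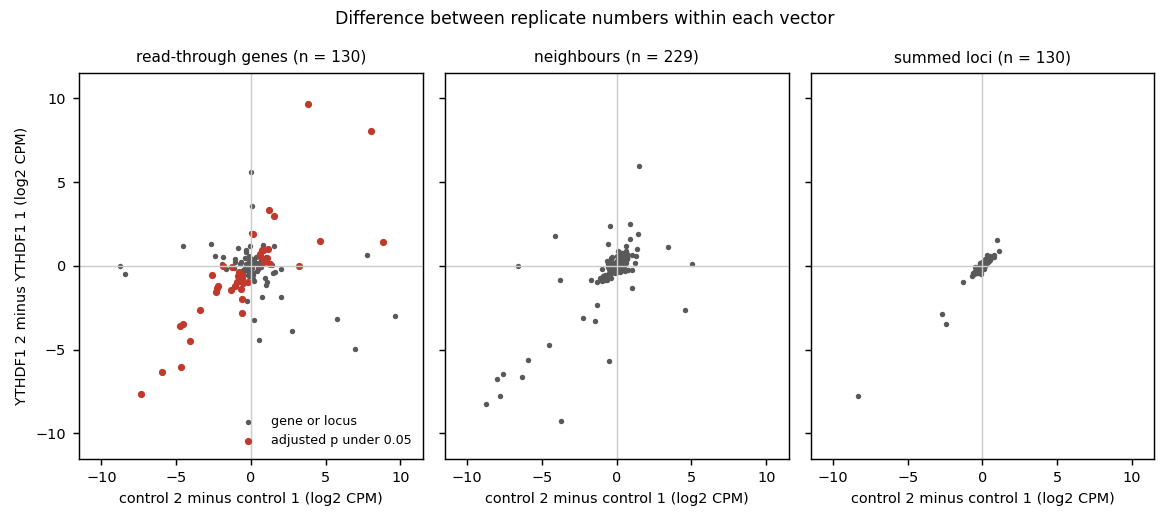
Each point gives the log2 CPM difference of number 2 minus number 1 in control (x axis) and in YTHDF1 (y axis), for read-through genes, neighbours and summed loci, with the 43 read-through genes called by the test in red. Summed loci lie along the diagonal, and read-through genes lie along both axes as well.

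The difference between the numbers was shared by both groups in the summed loci and the whole table, and less so in the read-through genes. The Pearson correlation of the 2 differences was 0.98 over the summed loci, 0.73 over the neighbours, 0.87 over all genes tested and 0.33 over the 130 read-through genes. These are descriptions across genes, which are not independent replicates, and all points rest on the same 4 libraries.

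Genes of cleavage, polyadenylation and termination were examined as a fixed list of 42, all of which were tested. Against control, 0 were higher and 0 lower in YTHDF1 at an unadjusted p under 0.05 by edgeR, with log2 fold changes from -0.10 to 0.14 and a median of 0.01 beside 0.00 for all genes tested. PCF11, a termination factor, had 7389 and 6771 counts in control and 6932 and 6714 in YTHDF1, and XRN2 had 12321 and 11124 against 12657 and 11654. Between replicate numbers 1 rose and 3 fell by edgeR, against the 25.7% of all genes. The poly(A) polymerase gene PAPOLA had 15797 and 8013 counts in control and 15926 and 8527 in YTHDF1, and PABPC1 and CTR9 were also lower in number 2, while CDK12, a kinase of RNA polymerase II, was higher.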

How the data were processed

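Poly(A) RNA-seq libraries of SNU638 cells (2 control vector, 2 YTHDF1 vector) were analysed from 1 table of whole-number counts per gene, which the authors deposited without normalization. Per the labels, libraries were stranded, and the submitters' processing notes name Trimmomatic, HISAT2 and GRCh38. The counting tool, its strand setting, its annotation and the treatment of shared exons are not given in the sources used here. Counts were tested with edgeR 4.0.16 (TMM scaling, filterByExpr, quasi-likelihood test, Benjamini-Hochberg adjustment over all genes), with DESeq2 1.42.0 as an alternative, in R 4.3.3. The steps were tested on simulated data. There, every gene had the same dispersion, and libraries did not differ by replicate number in the comparison of the groups. The simulation therefore does not show how many differences the test can find in these data. CPM used effective library sizes, and log2 CPM differences between single libraries used a prior count of 0.5. Shares of a locus have Clopper-Pearson 95% intervals, and a count of 0 was taken to allow 3 counts. Genes were named when called between the groups, when at most 3 counts in both libraries of a group or replicate number faced at least 10 in both others, when among the 10 highest by summed count, mean share or share range, or when among the 5 with the smallest p in each direction between replicate numbers. The members and gene lists were chosen with earlier results of these data known. The labels call the libraries biological replicates and say nothing more of their origin, so p-values measure the spread between these samples.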

Additional observations from a re-analysis of the deposited data

How the results depend on the processing

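With 2 libraries a group, calls depended on which libraries entered. Against 4 read-through genes called for YTHDF1 against control, 28 (15 higher, 13 lower) were called with a replicate block, 2 with a minimum summed count of 400, 0 with the adjusted p, and 6 to 12 when 1 library was left out. Over all genes 18 were called, 82 with no filter on low counts, 192 with a replicate block and 47 to 60 without 1 library. The labels give the replicate numbers no shared meaning, although deviations of same-numbered libraries correlated at 0.87 over all genes. In the block fit, 5 of the 8 genes with an edgeR adjusted p under 0.05 were read-through genes (the 4 named and BLOC1S5-TXNDC5). Among them PRR5-ARHGAP8, DNAAF4-CCPG1 and FAM47E-STBD1 passed the filter on low counts through control alone, so this count is a description. No summed locus was called in any fit, and 7 of 127 were under an unadjusted p of 0.05 at a smaller fold with the replicate block. The median log2 fold change of read-through genes was -0.04, and it was -0.063 with no filter, -0.10 with at least 10 counts in every library and -0.12 to 0.050 without 1 library. Between replicate numbers, 28 read-through genes were called by DESeq2's Wald test and 25 at a log2 threshold of 1 (2586 of all genes, against 4578). The 28 has no count over all genes beside it, so its distance from the reported count cannot be read as particular to read-through genes. The median share was 17.8% in control and 15.4% in YTHDF1 over the upstream neighbour alone (difference -2.45 points), 27.8 and 31.4% over the downstream neighbour alone (3.60 points), and 9.76 and 10.2% with at least 400 counts, so the sign of the difference between groups was not stable. Without 1 library the share was 5.72 to 6.51% in control and 5.00 to 6.22% in YTHDF1. The cause of these changes was not tested. Of 387 alternative values for 40 single genes, 8 passed the thresholds where the reported value did not and 2 no longer did. The alternative without BORCS7-ASMT and SLCO1B3-SLCO1B7 was added after the data were seen and left the share within its spread.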

Other observations

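Several read-through genes were nearly constant over the 4 libraries. IPO11-LRRC70 had 15 counts in each of them. BOLA2-SMG1P6 had 1819 and 1649 counts in control and 1631 and 1850 in YTHDF1, with shares of 61.2 to 64.6%, and TEN1-CDK3, which joins a telomere-capping gene to a cyclin-dependent kinase gene, had shares of 62.0 to 67.9%.

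Some members were counted in a single library or left out of a single one. IQCJ-SCHIP1 had 230 counts in control 1 and 0 elsewhere. C8orf44-SGK3 had 180 counts in control 1, 0 in control 2, 291 in YTHDF1 1 and 214 in YTHDF1 2, and SLCO1B3-SLCO1B7 had 0, 213, 130 and 354 in that order. In all, 16 of the 130 were at 0 in at least 1 library, and 110 had more than 3 counts in every library.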
